A study of Homo sapiens with 8 samples.

Results

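Wild-type SF3B1 was induced in K562 cells, a human erythroleukaemia line, and the induced cells were compared with the same line left uninduced. The comparison used 4 of the 8 libraries, those whose labels name the wild-type transgene. WT_induced (replicates 1 and 2) carried the wild-type SF3B1 transgene and had doxycycline at 1 ug/ml for 48 h. WT_uninduced (replicates 1 and 2) carried the same transgene without doxycycline. The other 4 libraries came from K562 cells with the K700E form of the transgene, K700E_induced and K700E_uninduced with 2 libraries each, and entered the scaling, the filter on low values, the rule for naming genes, the shared estimate of spread and the test of a difference between inductions. All 8 libraries were total RNA depleted of ribosomal RNA from cells that keep their own SF3B1 genes, as far as the labels tell. The labels do not say whether a line was 1 clone or a pool, or whether replicates were separate cultures, so p-values measure the spread between these libraries, which may be technical. Doxycycline and the transgene were given together, so an effect of the drug and one of the wild-type protein cannot be told apart within the WT line.

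SF3B1 is the largest subunit of SF3B, the part of the U2 small nuclear ribonucleoprotein that settles on the branch point of an intron and helps fix the acceptor site downstream of it. Mutant forms such as K700E are known for the use of cryptic acceptors a short way upstream of the normal site, and the wild-type transgene serves as their control. Doxycycline is also an inhibitor of translation in mitochondria, whose ribosomes resemble those of bacteria, so genes of the mitochondrial ribosome and the respiratory chain are of interest in any doxycycline comparison.

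Very few values separated the treatments beyond the spread between libraries. Gene levels are given as FPKM, fragments set against transcript length and the size of the library, summed over the transcripts of a gene and scaled between libraries. Of 11349 genes tested with limma, 1 passed an adjusted p of 0.05, or 0.00881%, and 489 had an unadjusted p under 0.05. With no change in any gene, 567 would be expected under 0.05. That gene was VTRNA1-3, a vault RNA. The median log2 fold change over all genes was 0.01 and the median SE was 0.75, while the median size of a change in either direction was 0.50. Both WT_induced libraries lay above both WT_uninduced libraries for 15.1% of genes and below them for 14.1%, 29.2% in all. The log2 fold change was above 0 for 51.4% of genes. Log2 gene levels correlated at r = 0.833 between the WT_induced libraries, at 0.814 between the WT_uninduced libraries and at 0.818 to 0.862 between libraries of the different treatments, across genes, which are not independent replicates.

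The depth of the libraries varied as far as the files show it, and it overlapped between the treatments. Read totals were not used here, but the coverage listed per FPKM was 4.78 and 3.28 in WT_induced, against 4.55 and 3.69 in WT_uninduced, and WT_induced replicate 2 had the lowest value of all 8. Transcripts assembled from the reads of 1 library numbered 45570 and 35683 in WT_induced, against 39794 and 24926 in WT_uninduced, and of these 3364 and 2920, against 2982 and 2343, were spliced. The remainder were unspliced fragments, 90.6% to 92.6% of those assembled in the WT libraries. The numbers of the treatments overlapped, and 2 against 2 libraries cannot give an exact two-sided p below 0.33.

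The sequences of 3 vault RNAs are shown because the only gene past the threshold is 1 of them and its paralogs are close copies. Vault RNAs are short transcripts of RNA polymerase III, some of which bind the vault, a large hollow ribonucleoprotein of the cytoplasm. The genes VTRNA1-1, VTRNA1-2 and VTRNA1-3 lie in a row on the plus strand of chromosome 5. The sequences are those of GENCODE on GRCh38, 5′ to 3′, with T for U. Capitals mark the 12 bases at which VTRNA1-2 and VTRNA1-3 differ when their 89 bases are set side by side without gaps.
VTRNA1-1: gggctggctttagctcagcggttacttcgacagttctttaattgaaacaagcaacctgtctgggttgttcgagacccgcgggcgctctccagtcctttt
VTRNA1-2: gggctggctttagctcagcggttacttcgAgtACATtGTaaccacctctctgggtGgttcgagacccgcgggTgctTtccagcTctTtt
VTRNA1-3: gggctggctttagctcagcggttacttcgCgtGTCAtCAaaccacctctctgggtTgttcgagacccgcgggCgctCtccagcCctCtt
VTRNA1-2 and VTRNA1-3 share 77 bases, and their longest identical stretch is 29 bases. VTRNA1-1 and VTRNA1-3 share a stretch of 34 bases.

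VTRNA1-3 was higher with induction of wild-type SF3B1 and the only gene past the threshold. The files place it at chr5:140105744-140105831 of hg19, a model of 88 nt. As deposited, without scaling, it was listed at 567932 FPKM in WT_induced replicate 1 and 32104 FPKM in WT_induced replicate 2, and at 0 in both WT_uninduced libraries and all 4 K700E libraries. The interval that Cufflinks gave with the value ran from 462921 to 672942 FPKM in WT_induced replicate 1 and from 0 to 69174 FPKM in WT_induced replicate 2. Both induced libraries therefore stood above every other library, but the interval of the second one reached down to 0. The limma adjusted p was 0.00275. It uses a spread pooled over all groups, of which every one but WT_induced was at 0 in both libraries. It therefore does not measure the spread between the WT_induced replicates alone. The gene passed the filter on mean FPKM only through WT_induced, the group where it is high, and with genes above 0 in all 8 libraries it is not tested. The call held in 12 of 19 other settings and was lost in 7, among them the fit on the 4 WT libraries alone (limma adjusted p 0.11) and every fit without a library outside WT_induced. FPKM divides by length, so for a model this short each fragment adds far more to the value than for a long one. How many fragments lay behind these values was not counted.

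None of the other vault components passed. VTRNA1-1, VTRNA1-2 and VTRNA2-1 were listed at 0 in all 8 libraries. MVP, the protein that builds the vault shell, was at 6.57 and 1.18 FPKM in WT_induced, against 5.64 and 0 in WT_uninduced, all of it on assembled transcripts. PARP4, the vault poly(ADP-ribose) polymerase, was at 6.50 and 13.5 FPKM in WT_induced, against 10.9 and 13.2 in WT_uninduced. TEP1, a protein shared by the vault and telomerase, was at 2.82 and 2.19 FPKM, against 2.56 and 2.25. The treatments overlapped for all 3 protein genes.

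Other short RNAs of RNA polymerase III overlapped between the treatments. RPPH1, the RNA of ribonuclease P, was at 105922 and 100437 FPKM in WT_induced, against 93907 and 104020 in WT_uninduced. RMRP, its relative in ribonuclease MRP, was at 73630 and 97425 FPKM, against 65183 and 107189. BCYRN1, a brain cytoplasmic RNA of Alu origin, was at 5993 and 5583 FPKM, against 4682 and 7672. Of 28 genes for subunits and factors of RNA polymerase III, 11 had a log2 fold change above 0 and 17 below, with a median of -0.08. Both induced libraries lay higher for 1 of them and lower for 7, together 28.6%, near the 29.2% of all genes. Its 3 most abundant members overlapped. SSB, the La protein that binds the ends of these transcripts, was at 87.8 and 157 FPKM in WT_induced, against 128 and 97.5 in WT_uninduced, and MAF1, a repressor of the polymerase, at 66.0 and 36.5 FPKM, against 60.6 and 69.0. POLR1D, a subunit shared by RNA polymerases I and III, was at 64.9 and 36.4 FPKM, against 72.7 and 37.2.

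No rise of SF3B1 itself was detectable on induction. Its reference transcript NM_012433, from 198256698 to 198299771 on chromosome 2 of hg19, was at 36.5 and 26.9 FPKM in WT_induced, against 37.7 and 31.3 in WT_uninduced. The treatments overlapped, with a mean of 31.7 ± 6.82 FPKM in WT_induced and 34.5 ± 4.51 FPKM in WT_uninduced (SD, n = 2 each). The log2 fold change was -0.13 with an SE of 0.37 and a limma adjusted p of 1. Transgene and endogenous fragments are not separated in these values, so the label "induced" names the treatment and was not checked at the level of the transgene.

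The partners of SF3B1 did not change past the threshold either. Of 11 genes for subunits of SF3B and SF3A, 4 lay above 0 and 7 below, with a median log2 fold change of -0.06 beside 0.01 over all genes. SF3B5, a small SF3B subunit, was at 134 and 35.7 FPKM in WT_induced, against 160 and 148 in WT_uninduced, so both induced libraries were lower. SF3B2, which contacts RNA near the branch point, was at 122 and 179 FPKM in WT_induced, against 108 and 122 in WT_uninduced, with both induced libraries narrowly higher. With reference transcripts alone the log2 fold change of SF3B2 was -0.0027. SF3A2, a subunit of the SF3A trimer, overlapped at 146 and 148 FPKM, against 128 and 183.

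Among 17 factors of the branch point and the acceptor site, 9 lay above 0 and 8 below, with a median of 0.12. Both induced libraries were higher for 3 and lower for 0, together 17.6%, below the 29.2% of all genes. SF1, which binds the branch point before U2 does, was at 129 and 136 FPKM in WT_induced, against 89.9 and 93.4 in WT_uninduced. U2AF1, which reads the AG of the acceptor, was at 106 and 88.6 FPKM in WT_induced, against 60.8 and 72.0 in WT_uninduced. The third was RBM5, a splicing regulator with a U2AF-like domain, at 24.7 and 23.6 FPKM, against 9.34 and 10.8, named after its values were seen. With reference transcripts alone SF1 kept a positive log2 fold change (0.51), while U2AF1 (-0.26) and RBM5 (-1.38) turned negative. U2AF2, the partner of U2AF1, overlapped at 98.8 and 137 FPKM in WT_induced, against 56.4 and 115 in WT_uninduced.

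Of 27 SR proteins and hnRNPs, the regulators that bind exons and introns, 19 lay above 0 and 8 below, with a median of 0.05. Both induced libraries were higher for 8 and lower for 3, together 40.7%, beside 29.2% of all genes. The 3 most abundant all overlapped. HNRNPA1 was at 650 and 644 FPKM in WT_induced, against 608 and 644 in WT_uninduced, HNRNPL at 215 and 215, against 284 and 196, and PTBP1 at 199 and 233, against 241 and 211. With reference transcripts alone 10 of the 27 took the opposite sign. Of 28 established missplicing targets of SF3B1 mutations, 13 were on the positive side and 15 on the negative one (median -0.09), and of 16 factors of nonsense-mediated decay 7 lay above and 9 below (median -0.06).

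By the naming rule, 24 further genes show the sizes involved, 12 higher and 12 lower in WT_induced. They had the smallest p among genes with a value above 0 in all 8 libraries, a mean of 10 FPKM, no overlap between the treatments and the same sign with reference transcripts alone. Their p and their separation are thus how they were picked, and none passed, with limma adjusted p between 0.685 and 0.997. Because the treatments do not overlap, each lay on the same side in both replicate numbers, which the file names place in different sequencing lanes.

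**Figure D1:**
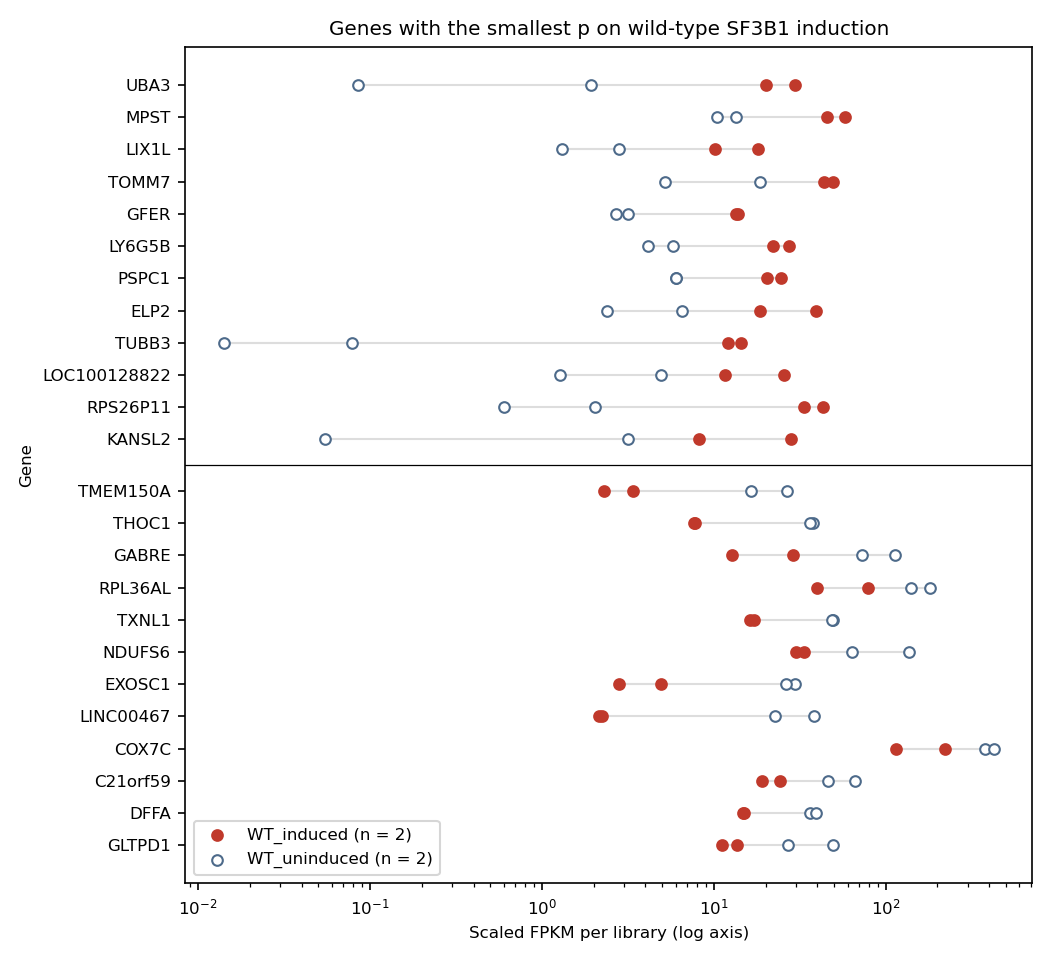
Scaled FPKM (log axis) of the 24 genes with the smallest p, 12 higher (top) and 12 lower (bottom) in WT_induced; each point is 1 library, filled for WT_induced and open for WT_uninduced (n = 2 each). The low values of UBA3, TUBB3 and KANSL2 in WT_uninduced reach below 0.1 FPKM, whereas the genes in the lower rows stay above 2 FPKM in all 4 libraries.

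MPST, a sulfurtransferase that makes hydrogen sulfide from mercaptopyruvate, was at 45.8 and 57.7 FPKM in WT_induced, against 10.4 and 13.4 in WT_uninduced, which is 2.07 ± 0.38 (SE) as a log2 fold change. It lies at chr22:37415683-37425863 of hg19 and overlaps TST on the other strand (18.1 and 19.3 FPKM in WT_induced, against 11.3 and 12.6 in WT_uninduced), so reads of the 2 genes may not be fully separated. The induced libraries stood at the level of the K700E_uninduced libraries (38.9 and 53.7 FPKM), and it was the WT_uninduced pair that was low among the 8. TOMM7, a subunit of the import channel in the outer mitochondrial membrane, was at 44.0 and 49.6 FPKM, against 18.4 and 5.23. GFER, the sulfhydryl oxidase of the intermembrane space, was at 13.9 and 13.5 FPKM, against 2.69 and 3.19. For TOMM7 the K700E libraries showed the same order, 76.0 and 68.5 FPKM in K700E_induced and 29.2 and 34.2 in K700E_uninduced.

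The other higher genes had varied roles. UBA3, the catalytic subunit of the enzyme that activates NEDD8, was at 29.8 and 20.1 FPKM in WT_induced, against 1.92 and 0.0846 in WT_uninduced (chr3:69103881-69129524), which is 4.39 ± 0.76 (SE) as a log2 fold change and the smallest limma adjusted p of the 24 (0.685). PSPC1, a paraspeckle protein, was at 20.3 and 24.6 FPKM, against 6.01 and 6.01. ELP2, a subunit of the Elongator complex that modifies tRNA, was at 18.7 and 39.2 FPKM, against 6.55 and 2.40. All 3 were clearly apart in the WT line, but for ELP2 the K700E_uninduced libraries (46.9 and 21.9 FPKM) reached as high as WT_induced. TUBB3, a beta tubulin best known from neurons, was at 14.5 and 12.1 FPKM in WT_induced, against 0.0141 and 0.0786 in WT_uninduced, and it had the same order in the K700E line, with 32.2 and 22.5 FPKM after induction and 9.19 and 0.0158 FPKM without it. KANSL2, a subunit of the NSL histone acetyltransferase complex, was at 8.25 and 28.3 FPKM, against 3.16 and 0.0543. LY6G5B, a gene of the class III region of the histocompatibility complex, was at 22.0 and 27.5 FPKM, against 4.16 and 5.78. The list also held LIX1L (17.96 and 10.1 FPKM, against 1.31 and 2.80), whose span overlaps 3 other tested genes, and the uncharacterised LOC100128822 (25.5 and 11.6 FPKM, against 4.93 and 1.28). RPS26P11, a close copy of the ribosomal protein gene RPS26, was at 33.6 and 43.1 FPKM, against 2.04 and 0.598. RPS26 itself was at 253 and 192 FPKM in WT_induced and 247 and 151 in WT_uninduced, and reads may have been divided between the copies. As for MPST, WT_uninduced was the lowest pair of the 8 libraries for TOMM7, GFER, UBA3, PSPC1, ELP2, LIX1L, KANSL2 and LOC100128822. K700E_uninduced was at 18.1 and 16.2 FPKM for PSPC1, 11.9 and 28.9 for KANSL2 and 15.8 and 18.6 for LIX1L. For LY6G5B, TUBB3 and RPS26P11 a K700E_uninduced library lay between the WT_uninduced ones. As for TOMM7 and TUBB3, both K700E_induced libraries lay above both K700E_uninduced ones for UBA3, LY6G5B and GFER. For GFER the margin was narrow (18.5 and 12.7 FPKM, against 11.6 and 12.6). For MPST and ELP2 both K700E_induced libraries were lower instead, and the remaining higher genes overlapped in the K700E line.

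NDUFS6, a subunit of complex I, was at 33.3 and 30.2 FPKM in WT_induced, against 63.5 and 136 in WT_uninduced (chr5:1801496-1816167), which is -1.54 ± 0.39 (SE) as a log2 fold change. COX7C, a small subunit of cytochrome c oxidase, was at 221 and 114 FPKM, against 379 and 424 (chr5:85913784-85916583), which is -1.33 ± 0.36 (SE) as a log2 fold change. In the K700E line NDUFS6 had 109 and 136 FPKM with induction, against 116 and 136 without, and COX7C at 428 and 355 FPKM, against 315 and 480. For both genes the WT_induced libraries were the lowest pair of the 8.

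THOC1, a subunit of the THO complex that couples transcription to export and also among the lower genes, was at 7.73 and 7.68 FPKM in WT_induced, against 37.9 and 36.1 in WT_uninduced (chr18:214520-268059), which is -2.19 ± 0.46 (SE) as a log2 fold change. EXOSC1, a cap subunit of the RNA exosome, was at 4.92 and 2.80 FPKM, against 29.6 and 26.3. RPL36AL, a ribosomal protein gene, was at 39.7 and 78.5 FPKM, against 141 and 181. Its paralog RPL36A, with which it may share reads, overlapped at 239 and 282 FPKM in WT_induced, against 322 and 243 in WT_uninduced. For THOC1 and RPL36AL, too, no K700E library was as low as the WT_induced pair.

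The remaining lower genes were likewise apart without passing. TMEM150A, a membrane protein, was at 3.41 and 2.30 FPKM in WT_induced, against 16.4 and 26.6 in WT_uninduced, which is -2.69 ± 0.54 (SE) as a log2 fold change, limma adjusted p 0.898. Its order was the same in the K700E line, with 8.05 and 13.1 FPKM after induction and 30.03 and 26.2 FPKM without it. GABRE, the epsilon subunit of the GABA-A receptor, was at 12.7 and 28.9 FPKM, against 113 and 72.5. TXNL1, a thioredoxin-like protein of the proteasome, was at 16.2 and 17.2 FPKM, against 49.6 and 48.9. DFFA, the inhibitor of the apoptotic nuclease CAD, was at 14.8 and 14.99 FPKM, against 36.5 and 39.4; in both treatments its replicates were close together. GLTPD1, which carries ceramide-1-phosphate between membranes, was at 13.6 and 11.1 FPKM, against 26.96 and 49.1. C21orf59, needed for motile cilia, was at 24.3 and 19.0 FPKM in WT_induced, against 66.4 and 46.0 in WT_uninduced, with the same order in the K700E line (23.4 and 20.2 FPKM, against 45.9 and 64.3). The long noncoding RNA LINC00467 was at 2.15 and 2.22 FPKM in WT_induced, against 22.8 and 38.4 in WT_uninduced. For RPL36AL and DFFA both K700E_induced libraries were higher than both K700E_uninduced ones. Apart from these, TMEM150A and C21orf59, the lower genes overlapped in the K700E line.

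Genes of mitochondria were then described by list. Among 62 nuclear genes of the respiratory chain 25 had a log2 fold change above 0 and 37 below, and 0 passed the limma test over all genes. At an unadjusted p under 0.05 there were 8, beside 489 of all 11349 genes. The median was -0.12, beside 0.01 over all 11349 genes. Both induced libraries lay above both uninduced ones for 11 members and below for 16, together 43.5%, where the share over all genes was 29.2%. The median of single pairs of libraries, 1 induced minus 1 uninduced, was below 0 in all 4 pairs and ranged from -0.19 to -0.07, while the median difference between replicates was 0.03 in WT_induced and 0.12 in WT_uninduced. With reference transcripts alone the median was -0.02. These are bulk libraries, in which fewer cells of a type and less RNA per cell cannot be told apart.

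Cytochrome c oxidase (complex IV) had a lower median than the other complexes and is set out first for that reason. Of its 10 genes 6 lay below 0, with a median of -0.28, and both induced libraries were lower for 5 and higher for 2. Over all genes they were lower for 14.1% and higher for 15.1%. COX8A, a small subunit, was at 630 and 619 FPKM in WT_induced, against 874 and 953 in WT_uninduced. COX5B was at 351 and 310 FPKM, against 450 and 605. COX6A1 overlapped at 442 and 350 FPKM, against 425 and 369. The 2 members higher in both induced libraries were COX7B, at 233 and 270 FPKM, against 135 and 174, and COX5A, at 150 and 134 FPKM, against 123 and 133; these 2 were named after their values were seen. Complex I was mixed, with 16 of 36 genes above 0 and 20 below (median -0.07). Both induced libraries were higher for 6 and lower for 7, beside 15.1% and 14.1% of all genes. Of 7 genes of complex III 2 lay above 0 and 5 below, and of 5 genes of ATP synthase 1 lay above and 4 below.

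Mitochondrial ribosomal proteins moved in both directions. Of 79 genes 37 lay above 0 and 42 below, with a median of -0.03, and both induced libraries were higher for 13 and lower for 14, together 34.2%, beside 29.2% of all genes. MRPL41 was at 82.5 and 84.1 FPKM in WT_induced, against 131 and 180 in WT_uninduced. MRPL37 and MRPS21 overlapped, MRPL37 at 126 and 111 FPKM, against 113 and 167, and MRPS21 at 209 and 77.5 FPKM, against 159 and 105. Of 26 mitochondrial aminoacyl-tRNA synthetases and translation factors 11 lay above 0 and 15 below, and TUFM, the elongation factor of the mitochondrial ribosome, was at 157 and 183 FPKM in WT_induced, against 158 and 241 in WT_uninduced.

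Mitochondrial chaperones and proteases had a median of -0.01 over 16 genes, 7 above 0 and 9 below. HSPA9, the mitochondrial HSP70, was at 143 and 125 FPKM in WT_induced, against 173 and 201 in WT_uninduced, and PHB2, a prohibitin of the inner membrane, at 141 and 127 FPKM, against 173 and 151. Both were lower in both induced libraries. HSPD1, the mitochondrial HSP60, overlapped at 147 and 187 FPKM, against 136 and 221. With reference transcripts alone HSPA9 (0.10) and PHB2 (0.21) had a log2 fold change above 0. The mRNAs encoded by mitochondrial DNA were not analysed here.

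Glycolysis enzymes lay mostly below 0. Of 18 genes, counting the glucose carrier, 5 were above 0 and 13 below, with a median of -0.23, and none passed. At an unadjusted p under 0.05 limma gave 0 members. Both induced libraries were lower for 7 members and higher for 0, 38.9% of the list beside 29.2% of all genes. GAPDH was at 1197 and 918 FPKM in WT_induced, against 1378 and 1381 in WT_uninduced. ALDOA, the aldolase of muscle and blood cells, was at 1002 and 1003 FPKM, against 1035 and 1464, and the enolase ENO1 at 587 and 491 FPKM, against 625 and 729. The 3 most abundant members were therefore all lower in both induced libraries, by less than the distance between replicates for ALDOA. The 4 medians of single pairs ran from -0.38 to -0.06, and the replicates differed by a median of 0.26 in WT_induced and 0.10 in WT_uninduced. The K700E induction had a median of -0.15 for the same genes.

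**Figure D2:**
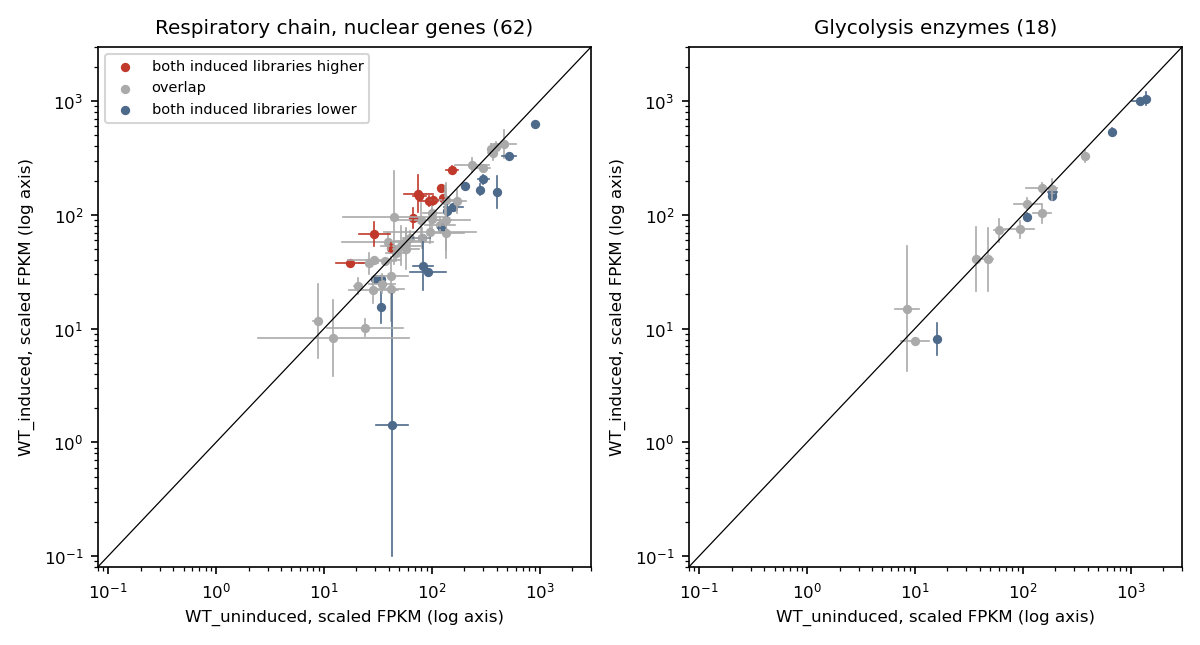
Scaled FPKM in WT_uninduced (horizontal, log axis) and WT_induced (vertical, log axis) of 62 respiratory chain genes and 18 glycolysis genes; points are geometric means of 2 libraries, lines span the 2 libraries and values below 0.1 are drawn at 0.1. Genes with both induced libraries lower lie below the diagonal, 16 of the respiratory chain and 7 of glycolysis, and those with both higher above it, 11 and 0.

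Stress and growth genes did not move past the threshold. Of 32 targets of ATF4 and the integrated stress response 12 lay above 0 and 20 below (median -0.15). ATF4 itself was at 381 and 316 FPKM in WT_induced, against 322 and 317 in WT_uninduced, and DDIT4, an inhibitor of mTOR, at 396 and 170 FPKM, against 366 and 278. GDF15, a secreted stress factor, was at 311 and 55.7 FPKM, against 303 and 211. All 3 overlapped, with the low value in WT_induced replicate 2. Of 13 cyclin-dependent kinase inhibitors and p53 targets 2 lay above 0 and 11 below, with a median of -0.40, which ran from -0.57 to 0.02 when each WT library was left out. GADD45A, a DNA damage gene, was at 51.3 and 34.9 FPKM in WT_induced, against 64.6 and 66.7 in WT_uninduced. XPC, a sensor of damaged DNA, was at 22.9 and 20.8 FPKM, against 30.6 and 32.2, but with reference transcripts alone its log2 fold change was 0.20. The effector BAX overlapped at 65.3 and 8.72 FPKM, against 92.6 and 42.1. K562 cells are known to lack functional p53.

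In the BCL2 family, 6 of 12 genes lay above 0 and 6 below. BCL2L1, the survival gene of red cell precursors, was at 202 and 126 FPKM in WT_induced, against 126 and 112 in WT_uninduced, with the lower induced library just above the higher uninduced one. MCL1, another survival gene, was at 52.0 and 46.4 FPKM, against 57.6 and 109, but with reference transcripts alone its log2 fold change was 0.07. Heat shock chaperones (median 0.09 over 16 genes), factors of endoplasmic reticulum stress (-0.04 over 20) and cholesterol enzymes (-0.03 over 24) stayed near 0. HSP90AB1, the constitutive HSP90, was at 726 and 766 FPKM in WT_induced, against 755 and 848 in WT_uninduced, CALR, the chaperone calreticulin, at 333 and 303 FPKM, against 240 and 353, and FDFT1, squalene synthase, at 81.2 and 74.4 FPKM, against 70.6 and 77.1.

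**Figure D3:**
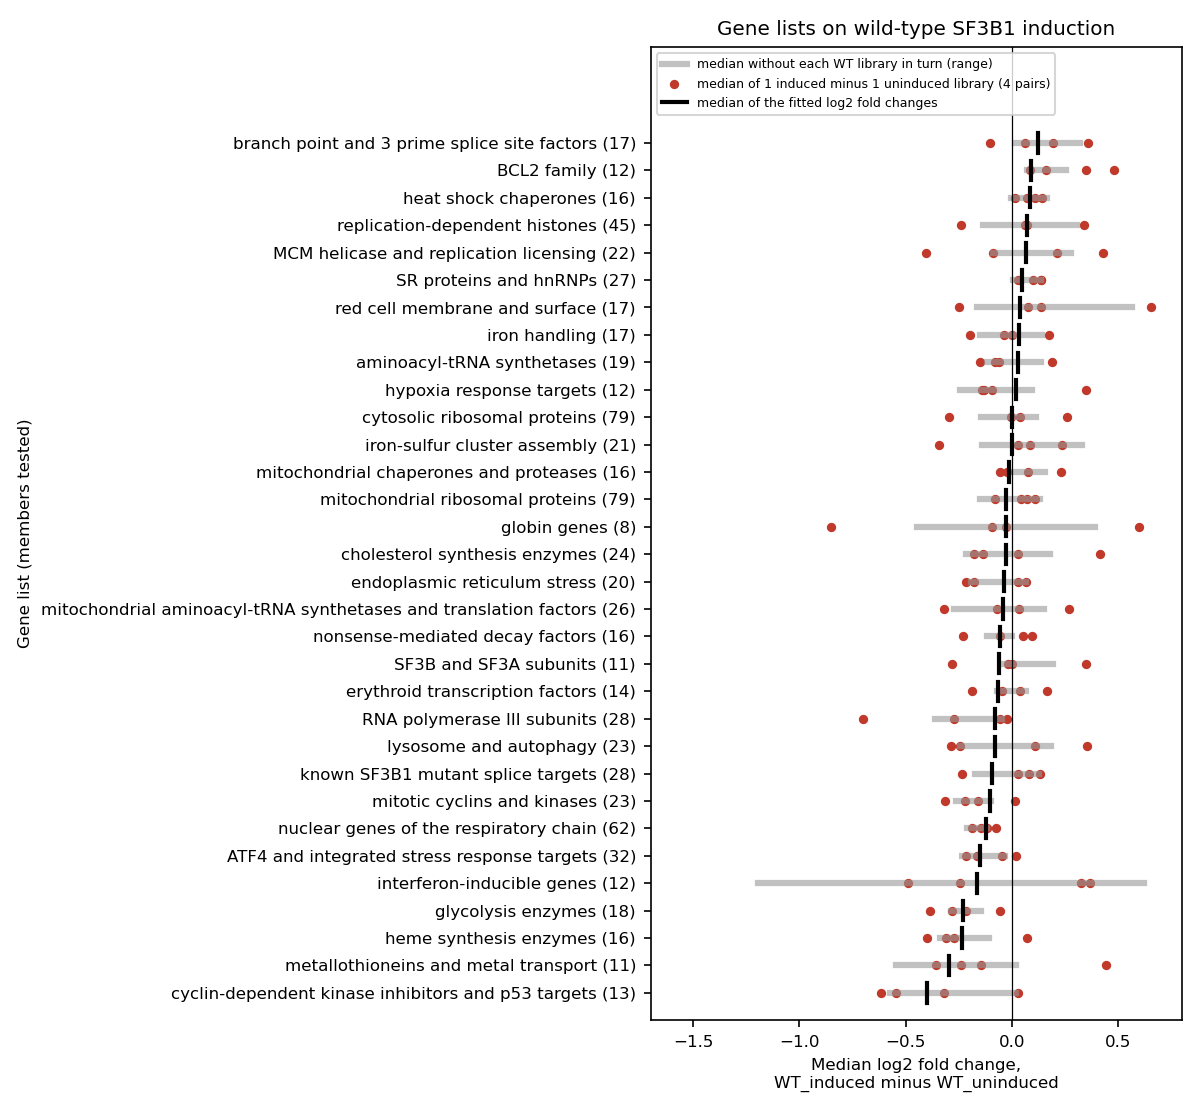
Median log2 fold change (WT_induced minus WT_uninduced) of 32 gene lists with 8 or more members tested, with the number of members in brackets; bars mark the median of the fitted values, dots the median for each of 4 pairs of an induced and an uninduced library, and grey lines the range without each WT library in turn. All 4 dots lie above 0 for 3 lists and below 0 for 3, among the 3 below being those of respiratory chain and glycolysis genes, and the dots of most lists fall on both sides of 0.

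The erythroid character of the line was seen in all 4 WT libraries. All 8 erythroid markers were measured, and their summed level was 8361 and 7519 FPKM in WT_induced, against 8753 and 7851 in WT_uninduced. Of markers of other lineages, 2 of 9 megakaryocytic, 3 of 10 myeloid, 2 of 10 lymphoid and 6 of 12 stromal and epithelial genes reached a mean of 1 FPKM. Listed at 0 in all 8 libraries were 3 megakaryocytic, 5 myeloid, 4 lymphoid and 2 stromal and epithelial markers. They included PF4, PPBP, CD14, MPO, ELANE, MS4A1 and NKG7. Other members were expressed. The most abundant had a mean over the 8 libraries of 186 FPKM among megakaryocytic markers (GP1BB) and 30.6 among myeloid ones (SPI1). It was 22.6 FPKM among lymphoid markers (CD3D) and 359 among stromal and epithelial ones (KRT8). Summed myeloid markers were at 45.9 and 102 FPKM in WT_induced, against 92.3 and 116 in WT_uninduced, lymphoid markers at 23.02 and 8.27, against 25.5 and 38.1, megakaryocytic markers at 351 and 41.3, against 368 and 29.5, and stromal and epithelial markers at 758 and 544, against 871 and 590. Only the lymphoid sum, nearly all of it CD3D, did not overlap between the treatments, and its part in other results was not tested.

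Globin genes were carried by the fetal and alpha forms and overlapped between the treatments. HBG2 was at 1531 and 2695 FPKM in WT_induced, against 1518 and 2852 in WT_uninduced, its near-identical copy HBG1 at 1132 and 1902 FPKM, against 1030 and 2099, and HBA1 at 2399 and 1432 FPKM, against 2334 and 1403. Each of these genes was close between the treatments within a replicate number and far apart between numbers. The same held for IFITM3, an interferon-inducible membrane protein, at 19.8 and 409 FPKM in WT_induced, against 25.8 and 327 in WT_uninduced, and for the platelet glycoprotein gene GP1BB, at 332 and 0 FPKM, against 358 and 0. In the K700E line HBA1 again differed between numbers, here with number 2 the higher, at 2228 and 3934 FPKM in K700E_induced libraries, against 2037 and 3248 in K700E_uninduced libraries. HBG1 also split by number there, at 1745 and 2552 FPKM, against 2300 and 3305. HBG2 did not, at 2782 and 3275 FPKM, against 3771 and 4920. Nor did IFITM3, with 364 and 310 FPKM in K700E_induced libraries, against 139 and 227 in K700E_uninduced libraries, or GP1BB, at 212 and 259 FPKM, against 0 and 326. IFITM3 and GP1BB are set out here for a pattern seen in their values. Over all genes the deviations of same-numbered WT libraries from their group means correlated at only 0.08.

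Among erythroid regulators 6 of 14 lay above 0 and 8 below. GATA1, the master factor of the lineage, was at 249 and 209 FPKM in WT_induced, against 298 and 257 in WT_uninduced, both induced libraries lower. NFE2 and KLF1 overlapped, NFE2 at 103 and 95.7 FPKM, against 67.0 and 165, and KLF1 at 90.3 and 87.2 FPKM, against 43.0 and 166. Of 16 genes of heme metabolism 5 lay above 0 and 11 below (median -0.24), and among the most abundant BLVRB, a biliverdin reductase, was at 317 and 463 FPKM in WT_induced, against 427 and 312 in WT_uninduced, and UROD, an enzyme of heme synthesis, at 304 and 163 FPKM, against 301 and 289. Iron handling genes had a median of 0.04, with the ferritin light chain FTL at 2958 and 1960 FPKM, against 2998 and 2695. Cytosolic ribosomal protein genes were even, 39 above 0 and 40 below with a median of -0.00, and RPS2 was at 2765 and 3998 FPKM, against 3035 and 3695. Of 45 histone genes 25 lay above 0 and 20 below, of 22 replication licensing genes 14 and 8, and of 23 mitotic cyclins and kinases 8 and 15.

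Splicing was tested in 3 ways and no event passed in any. For 20555 transcripts of 6110 genes, the share of the gene was compared, and limma called 0, or 0%, with 749 at an unadjusted p under 0.05 and a smallest adjusted p of 0.883. For 741 pairs of acceptors at most 100 nt apart behind 1 donor, the upstream site was set against the downstream one, and limma called 0, with 29 at an unadjusted p under 0.05 and a smallest adjusted p of 0.919. For 2118 cassette exons the counts were 0 and 108, with a smallest adjusted p of 0.866. The shares of the treatments did not overlap for 10.1% of transcripts, 21.2% of acceptor pairs and 21.4% of cassette exons. The median SE of the log2 ratios was 2.79 for transcripts, 3.85 for acceptor pairs and 3.36 for cassette exons. In simulated data limma called 0% of transcripts, 4.48% of acceptor pairs and 1.49% of cassette exons given a log2 change of 4. At a change of 8 it called 7.46%, 28.4% and 26.9%, so most changes of these sizes were missed there. The simulated noise was normal, whereas the real shares often lay wholly on a single form, so these rates may not hold for the data. No other tool was run on these shares.

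Cufflinks assigns fragments among the transcripts of a gene, and within a library it often gave all of them to 1 form. In the WT libraries 66.3% to 73.2% of acceptor pairs with a value were at 0% or 100%, as were 62.9% to 71.9% of cassette exons and 74.9% to 80.3% of transcripts. A share that jumps from none to all between libraries therefore need not come with a change in the level of the gene.

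No pair with a cryptic acceptor, the hallmark of mutant SF3B1, passed the test on wild-type induction. Of 44 pairs whose upstream acceptor is not annotated, the mean share of the upstream site was higher in WT_induced for 14, lower for 19 and equal for 10, of 43 with a value in both treatments. Both induced libraries lay higher for 0 and lower for 3, and the median share of the upstream site was 0% in each WT library. At an unannotated site 0% means that no such transcript was assembled in that library, and reads across the site were not counted. Of the 19 such pairs with 10 to 30 nt between the sites it was higher for 6, lower for 6 and equal for 7, and 6 had the upstream site at 0 in all 4 WT libraries. In YIPF2, a Golgi membrane protein gene with an unannotated acceptor 17 nt upstream, all of 52.8 and 29.2 FPKM in WT_induced and 45.2 and 49.4 FPKM in WT_uninduced lay on the downstream site. In K700E_induced 100% of the FPKM on the pair lay on the upstream site in both libraries, and in K700E_uninduced 0%. The difference between the inductions did not pass for this pair (limma adjusted p 0.824), and no ratio is given because each treatment has a form listed at 0.

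**Figure D4:**
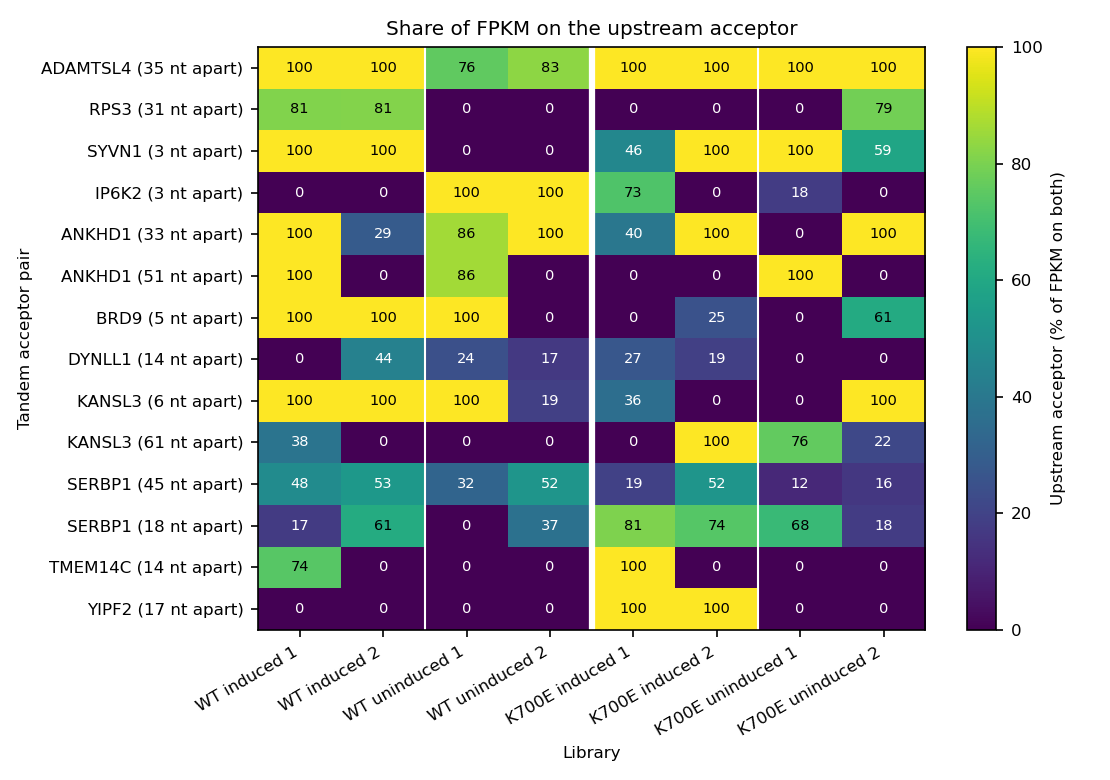
Share of FPKM on the upstream acceptor (%) for 14 tandem acceptor pairs (rows, with their distance in nt) in the 8 libraries (columns), WT libraries left and K700E libraries right. The 4 pairs with the smallest p are at the top; in the last row YIPF2 is at 0% in all 4 WT libraries and at 100% in both K700E_induced libraries.

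The other known targets varied between replicates of 1 treatment. For TMEM14C, a mitochondrial heme transporter with acceptors 14 nt apart, the upstream share was 74.0% and 0% in WT_induced, against 0% and 0% in WT_uninduced. For DYNLL1, a dynein light chain also with 14 nt between sites, it was 0% and 43.8%, against 24.4% and 16.6%. SERBP1, an mRNA-binding protein, stood at 48.2% and 53.3% for its pair 45 nt apart, against 32.1% and 52.2%. BRD9, a bromodomain protein of a chromatin remodelling complex, stood at 100% and 100% for a pair 5 nt apart, against 100% and 0%. In all of these the treatments overlapped.

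The acceptor pairs with the smallest p included 2 with sites 3 nt apart. The spliced RNA around them is shown because both have a CAG before the first exon boundary and another as the 3 bases that are kept or lost. The windows hold 12 bases of the exon before, the 3 bases between the acceptors in capitals and 12 bases after them, from GENCODE on GRCh38, 5′ to 3′.
SYVN1: ccaccagtgcagCAGccctttctcggc
IP6K2: ctgggaccacagCAGagcatcctggcc
The capitals lie at chr11:65130173-65130175 and chr3:48695419-48695421 of GRCh38, both on the minus strand. SYVN1, a ubiquitin ligase of the endoplasmic reticulum, had 100% of its FPKM on the upstream acceptor, which keeps the CAG, in both WT_induced libraries and 0% in both WT_uninduced libraries. IP6K2, an inositol phosphate kinase, went the other way, with 0% in both WT_induced libraries and 100% in both WT_uninduced libraries. The K700E libraries followed neither pattern, at 46.4% and 100% in K700E_induced and 100% and 58.8% in K700E_uninduced for SYVN1, and at 72.5% and 0% and at 17.9% and 0% for IP6K2. The limma adjusted p was 0.949 for both pairs. Over all 266 pairs with 3 nt between the sites, the mean share of the upstream acceptor was higher in WT_induced for 126, lower for 103 and equal for 33, of 262 with a value in both treatments, and both induced libraries were higher for 32 and lower for 28.

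The longer pairs with a small p were in ADAMTSL4 and RPS3. ADAMTSL4, a matrix protein gene, had 100% of its FPKM on the upstream acceptor in both WT_induced libraries and all 4 K700E libraries, and 75.6% and 82.8% in WT_uninduced, the rest being on an unannotated site 35 nt downstream (limma adjusted p 0.919). RPS3, a ribosomal protein gene with sites 31 nt apart, had 81.1% and 81.4% on the upstream site in WT_induced, against 0% in both WT_uninduced libraries, and 78.8% in K700E_uninduced replicate 2. A cassette exon of 131 nt in the same gene was included at 30.9% and 25.0% in WT_induced, against 100% in both WT_uninduced libraries, and at 26.9% in K700E_uninduced replicate 2. The 2 events rest on the same FPKM, 643 and 593 in WT_induced, listed for the form that uses the upstream site and lacks the exon. Gene FPKM of RPS3 was 930 and 791 in WT_induced, against 449 and 777 in WT_uninduced, with the lower induced library just above the higher uninduced one.

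MYH10, a nonmuscle myosin heavy chain, had the cassette exon with the smallest p. Its 30 nt exon is shown in capitals with 10 bases of each neighbouring exon in the spliced RNA, from GENCODE on GRCh38, where it spans chr17:8576643-8576672 on the minus strand.
MYH10: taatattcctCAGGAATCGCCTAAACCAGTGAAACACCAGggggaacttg
The length is a multiple of 3. Inclusion was 100% in both WT_induced libraries, at 23.5 and 22.2 FPKM, and 0% in both WT_uninduced libraries and all 4 K700E libraries. Skipping held 14.6 and 22.8 FPKM in WT_uninduced and 0 in WT_induced. The level of the gene overlapped, at 23.5 and 22.2 FPKM in WT_induced, against 27.2 and 22.8 in WT_uninduced. The limma adjusted p was 0.866.

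Further events with a small p did not pass either. A cassette exon of NOB1, an endonuclease of ribosome assembly, was included at 100% in both WT_induced libraries, against 38.5% and 0% in WT_uninduced. One of 114 nt in the translation factor gene EIF4G2 was included at 100% in both, against 76.6% and 81.6%. In the K700E line inclusion was 100% and 81.1% after induction and 100% in both uninduced libraries for NOB1. For EIF4G2 it was 100% in all 4 K700E libraries. For both exons the WT_uninduced pair was thus the lowest. Among transcripts, NM_002476 of MYL4, an embryonic myosin light chain, held 100% and 60.7% of the gene in WT_induced and 0% in the other 6 libraries. NM_007100 of ATP5I, a subunit of ATP synthase, held 100% in both WT_induced libraries and all 4 K700E libraries, against 50.4% and 64.4% in WT_uninduced. Assembled forms of DHX30, an RNA helicase of mitochondria and cytoplasm, and of LSR, a lipoprotein receptor, held 0% in both WT_induced libraries, against 100% and 100% for DHX30 and 81.9% and 100% for LSR in WT_uninduced. In the K700E line the DHX30 form went the same way, at 0% in both K700E_induced libraries, against 81.6% and 72.9% in K700E_uninduced, while that of LSR held 0% and 14.8%, against 0% in both. All 4 transcripts had a limma adjusted p of 0.883.

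Whether the wild-type induction differed from the mutant one was tested gene by gene as the difference of the 2 changes. By limma 2 of 11349 genes passed, 0.0176%, and 485 had an unadjusted p under 0.05. VTRNA1-3 was one (limma adjusted p 0.02). The other was MIR4461, a microRNA precursor of 74 nt (limma adjusted p 0.000127). It was listed at 0 in all 4 WT libraries and in K700E_uninduced, and at 62042 and 65150 scaled FPKM in K700E_induced. MIR4461 passed the filter on mean FPKM only through K700E_induced, the group where it is high. For so short a model each fragment adds far more to the FPKM than for a long one, and fragments were not counted. For both genes the p uses a spread pooled with groups that were listed at 0 throughout. No transcript share, acceptor pair or cassette exon passed this test, with smallest adjusted p of 0.488, 0.499 and 0.861. Across the 11349 genes the 2 sets of log2 fold changes, which share no library, correlated at a Pearson r of 0.01, and the median size of a change was 0.50 in the WT line and 0.49 in the K700E line.

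**Figure D5:**
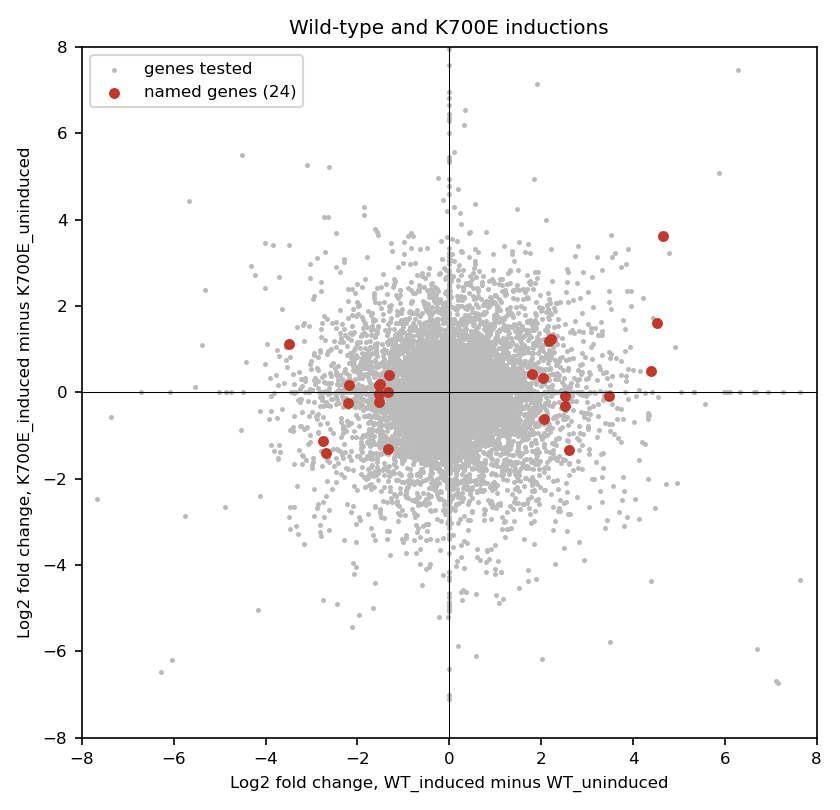
Log2 fold change of 11349 genes on WT induction (horizontal, WT_induced minus WT_uninduced) and on K700E induction (vertical, K700E_induced minus K700E_uninduced); grey points are genes tested and red points the 24 named genes, and 6 genes lie outside the axes, which end at 8. The cloud has no slope, and the named genes, picked on the horizontal axis, spread on both sides of 0 on the vertical one.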

How the data were processed

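Expression was measured by RNA sequencing in 8 libraries, in groups taken from the labels. The submitters' processing notes name Cufflinks, TopHat, CASAVA and hg19, without versions, and no other step is given in the sources used here. Each deposited list holds the FPKM of every transcript as the authors made it. The other attributes used from the same deposited column, per the file headers, were the interval and the coverage. Read counts are not used here, so intervals cover estimation within a library only.

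Gene FPKM was summed over reference transcripts and assembled spliced transcripts of 300 nt or more, given to the gene sharing most introns. Of 23496 genes, 11349 with a mean of 1 FPKM after median-ratio scaling (7576 genes) entered limma 3.58.1 (trend, R 4.3.3) over all 8 libraries on the log2(FPKM + 0.5) scale, with Benjamini-Hochberg adjustment and a threshold of 0.05. Fold changes on this scale understate changes of low genes, and none is printed against a group listed at 0. Splicing used log2 ratios with the same 0.5 at a mean of 5 FPKM, for transcripts that averaged 5% to 95% of their gene and for acceptors and exons with both forms in 2 libraries. The code was tested on simulated data. Members and 40 gene lists were chosen with earlier results of these data known; of each list up to 3 of the most abundant members are named (1 result is not reported here), of splicing events the 4 with the smallest p and the known targets. Alternatives were other pseudocounts, filters, scalings and fits, reference transcripts alone, and each library left out. Tables used Python 3.11.15, pandas 2.3.3 and numpy 2.4.6, and figures matplotlib 3.10.9. Of 40801 accessions 82 had no gene name.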

Additional observations from a re-analysis of the deposited data

Results flagged for a closer look

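For 2 genes the change on WT induction differed from that on K700E induction by limma's test of the difference. VTRNA1-3, with an adjusted p of 0.02, was above 0 in both WT_induced libraries and listed at 0 in the 6 others; the call was lost without any library outside WT_induced (limma adjusted p 0.189 to 0.28), with no filter on low values (0.0748), with reference transcripts alone (0.0554) and without trend (0.0907). MIR4461, with an adjusted p of 0.000127, was above 0 in both K700E_induced libraries and listed at 0 in the 6 others; its call was lost without K700E_induced replicate 1 (0.0928). Each of these genes passed the filter on mean FPKM only through the group where it is high, and with genes above 0 in all 8 libraries neither is tested. Groups of 2 libraries are too small to test for an outlying library.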

How the results depend on the processing

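Counts of genes past the limma threshold on WT induction, 1 as reported, were 13 with no filter on low values, 9 with reference transcripts alone, 4 without trend, 0 with genes above 0 in all 8 libraries and 0 with the compared groups alone. Leaving out each library gave 0 to 11 genes, with 11 without WT_induced replicate 1, 2 without WT_induced replicate 2 and 0 without any of the other 6. For the difference between inductions, 2 as reported, the count was 15 with no filter and 0 with genes above 0 in all 8 libraries, and 0 to 3 with each library left out, 0 of them without K700E_induced replicate 1. Transcripts, acceptor pairs and cassette exons past the threshold, 0 as reported, numbered 0 to 1 with each library left out. The cause was not tested. The log2 fold change of SF3B1 ran from -0.35 to 0.0867 with each library left out, above 0 without WT_induced replicate 2 (0.0867) and without WT_uninduced replicate 1 (0.00085). With the replicate block, 1 gene passed for WT induction and 2 for the difference; the deviations of same-numbered libraries correlated at -0.03 to 0.08, so the numbers were not taken to pair the samples. Of 499 alternative values for the 25 named genes, 492 kept direction and call and 7 lost the call, all 7 being VTRNA1-3. The other named genes were picked for separate treatments and for the same sign with reference transcripts alone. Their direction was thus largely fixed in advance, and for them keeping the call means that they still did not pass. A fit that leaves a group with 1 library assumes that it varies like the others. In data simulated for the gene comparison, limma called 14.9% of genes given a log2 change of 2, 53.7% at 4 and 80.3% at 6, so smaller changes would mostly be missed with 2 libraries a group.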
